A study of Mus musculus with 12 samples.

Results

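The collagen chains described here are the 44 genes, of 20606 in the deposited table, whose symbol is Col, a type number, a and a chain number. They were grouped by class into 11 fibrillar chains, 6 basement membrane chains of type IV, 6 beaded filament chains of type VI, 9 FACIT chains and 12 others. Bulk RNA sequencing was done on fibroblasts purified from mouse lung, in 4 groups of 3 libraries. M-MF and M-MyoF are the subgroups MF and MyoF from mice with lung metastasis, which the series title places in breast cancer, and N-MF and N-MyoF are the same subgroups from normal mice. MF are the matrix fibroblasts of the title. The strain, age and sex of the mice, the cancer cells, the stage of disease, the markers used to sort them and any pooling of mice are not stated in the labels. Nor do the labels tie the 3 libraries of a group to different mice: the p-values rest on the spread between libraries, which may be technical.

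Every collagen is built from 3 chains wound into a triple helix, so the chains present in a cell set which collagens it can make. Types I, III and V form the banded fibrils that bear load in lung interstitium, with type V at the fibril core. Type IV chains form the sheet of basement membranes as the networks of alpha1 with alpha2, of alpha3 with alpha4 and alpha5, and of alpha5 with alpha6. Type VI forms beaded filaments around cells, in which alpha1 and alpha2 pair with alpha3 or with one of the later chains alpha4, alpha5 and alpha6. FACIT collagens (fibril-associated collagens with interrupted triple helices) sit on the fibril surface, and types II, IX, X and XI are the collagens of cartilage.

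The results below turn most often on Col6a5 and Col6a6, which lie side by side, and on the type IV pairs Col4a1 with Col4a2 and Col4a3 with Col4a4, each of which starts from one point in opposite directions. Promoter windows of 250 bases before to 50 after the start, from RefSeq on GRCm38.p6, matched 35 of the 44 genes, in 38 windows. They are shown for the chains of these neighbour pairs that have one, so that the letters of a shared start can be read beside the values. Capitals mark every CCAAT and GGGCGG found on either strand, so the reverse complements ATTGG and CCGCCC are in capitals too; TATAAA was also searched on both strands and was found in none of these windows. Col6a5 is at chr9:105960594-105960893, minus strand, Col6a6 at chr9:105828036-105828335, minus strand, Col4a1 at chr8:11312777-11313076, minus strand, Col4a2 at chr8:11312555-11312854, plus strand and Col4a4 at chr1:82586800-82587099, minus strand.
Col6a5: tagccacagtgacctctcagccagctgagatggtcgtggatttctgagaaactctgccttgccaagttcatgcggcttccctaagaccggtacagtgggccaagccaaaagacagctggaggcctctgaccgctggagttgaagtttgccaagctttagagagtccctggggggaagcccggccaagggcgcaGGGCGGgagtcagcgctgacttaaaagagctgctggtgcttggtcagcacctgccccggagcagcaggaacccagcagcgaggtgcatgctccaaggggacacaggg
Col6a6: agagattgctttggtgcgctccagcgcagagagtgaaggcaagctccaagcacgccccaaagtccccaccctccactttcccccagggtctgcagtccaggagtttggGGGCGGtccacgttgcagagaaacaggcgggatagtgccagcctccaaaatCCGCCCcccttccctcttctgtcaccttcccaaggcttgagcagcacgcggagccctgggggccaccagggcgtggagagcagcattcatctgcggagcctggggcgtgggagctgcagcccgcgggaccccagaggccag
Col4a1: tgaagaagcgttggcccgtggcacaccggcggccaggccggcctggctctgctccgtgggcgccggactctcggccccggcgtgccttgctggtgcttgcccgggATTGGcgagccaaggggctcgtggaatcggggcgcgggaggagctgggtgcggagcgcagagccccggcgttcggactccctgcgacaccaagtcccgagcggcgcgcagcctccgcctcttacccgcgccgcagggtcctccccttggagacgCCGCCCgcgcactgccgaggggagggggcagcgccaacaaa
Col4a2: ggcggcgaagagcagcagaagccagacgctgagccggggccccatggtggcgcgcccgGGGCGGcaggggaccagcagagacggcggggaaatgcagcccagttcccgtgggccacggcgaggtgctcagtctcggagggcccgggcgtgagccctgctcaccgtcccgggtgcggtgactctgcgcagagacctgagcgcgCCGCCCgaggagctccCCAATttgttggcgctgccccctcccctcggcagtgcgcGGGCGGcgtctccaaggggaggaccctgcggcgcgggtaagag
Col4a4: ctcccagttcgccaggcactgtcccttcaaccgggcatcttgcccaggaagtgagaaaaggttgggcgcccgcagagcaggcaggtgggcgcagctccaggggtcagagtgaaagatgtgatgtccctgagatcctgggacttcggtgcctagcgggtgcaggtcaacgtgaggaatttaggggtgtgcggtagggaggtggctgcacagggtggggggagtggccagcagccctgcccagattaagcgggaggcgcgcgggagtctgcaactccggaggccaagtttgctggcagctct
The windows of Col4a1 and Col4a2 overlap by 78 bases, and their starts are 21 bases apart on opposite strands. The shared stretch, read on the minus strand in Col4a1 and on the plus strand in Col4a2, holds one of the capital runs, CCGCCC as printed for Col4a1 and GGGCGG as printed for Col4a2. Of the windows shown, those of Col4a1, Col4a2, Col6a6 and Col6a5 held GGGCGG, with 1, 3, 2 and 1 matches, and CCAAT was found once each in Col4a1 and Col4a2; the Col4a4 window held none of the 3 motifs. Over 32851 promoter windows of the same length, 35.7% held GGGCGG, 37.4% CCAAT and 13.6% TATAAA, against 60.5%, 34.2% and 13.2% of the 38 collagen windows. A match is a string of letters and is not a site.

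Values are FPKM, the authors' fragment counts scaled for transcript length and library, so levels can be set side by side between chains; the read depth is unknown. Library sums lay between 528176 and 618478 FPKM and within a group, libraries correlated at 0.998 to 0.999 in log2(FPKM + 1). Among chains over 10 FPKM the median coefficient of variation within a group was 1.18% to 1.66%. Summed markers of fibroblasts (8 genes, Dcn and Pdgfra among them) were at 8641 to 8766 FPKM in M-MF, 14710.3 to 14802 in N-MF, 2191 to 2237 in M-MyoF and 2869 to 2887 in N-MyoF. Most of the sum in MF was Dcn, at 5956 FPKM in M-MF and 10534.5 in N-MF. Between states, 2 of the 8 were higher and 5 lower in M-MF, and 3 higher and 4 lower in M-MyoF. Fn1 was among the higher ones, at 454 FPKM in M-MF and 93.6 in N-MF, and 69.03 in M-MyoF and 17.3 in N-MyoF. Of all genes 46.3% were higher and 31.8% lower in M-MF against N-MF, and 49.1% and 31.6% in M-MyoF against N-MyoF. All marker counts between states are to be read against these shares. All 10 myofibroblast markers, Acta2 among them, were lower in MF than in MyoF in both states. Of 10 matrix fibroblast markers 4 were higher and 6 lower in MF than in MyoF, in metastasis as in normal lungs. Of all genes 19.1% were higher and 66.0% lower in MF in metastasis, and 24.5% and 57.6% in normal lungs. The count of 6 lower matrix fibroblast markers is near these shares. Between states, all 10 matrix fibroblast markers were lower in M-MF than in N-MF, 4 of them at least 2-fold, as were 2.54% of all genes. These markers summed to 2344 to 2376 FPKM in M-MF, against 6942 to 7153 in N-MF. In M-MyoF 8 of them were lower and 1 higher, with sums of 1105 to 1115 FPKM in M-MyoF, against 1511 to 1543 in N-MyoF. The part of this shift in the collagen values was not tested. Markers of 8 neutrophil and leukocyte genes summed to 13204 to 13556 FPKM in M-MyoF, against 141 to 154 in N-MyoF, and to 247 to 256 in M-MF, against 33.01 to 37.2 in N-MF. Their part in the collagen values of M-MyoF was not tested. In bulk RNA, fewer cells of a type and less RNA per cell cannot be told apart.

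Collagen transcripts took a smaller share of the FPKM sum in metastasis than in normal lungs in both subgroups, and a far larger share in MF than in MyoF. The 44 chains together held 1.87% to 1.91% of the sum in the M-MF libraries, against 2.06% to 2.10% in N-MF. In M-MyoF they held 0.395% to 0.401%, against 0.509% to 0.515% in N-MyoF. No share of one state overlapped the other; an exact two-sided permutation test of 3 against 3 libraries cannot go below p = 0.1. The FPKM sums of the chains did overlap in MF, at 10662 to 10942 in M-MF, against 10859 to 11174 in N-MF; the library sums were larger in M-MF (571294 to 574574 FPKM) than in N-MF (528176 to 532244). In MyoF the chains summed to 2426 to 2479 FPKM in M-MyoF, against 2734 to 2789 in N-MyoF, with no overlap. Without the 10 most abundant genes, Gsn and Scgb1a1 the first of them, the shares were 2.05% in M-MF, 2.397% in N-MF, 0.429% in M-MyoF and 0.569% in N-MyoF.

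**Figure D1:**
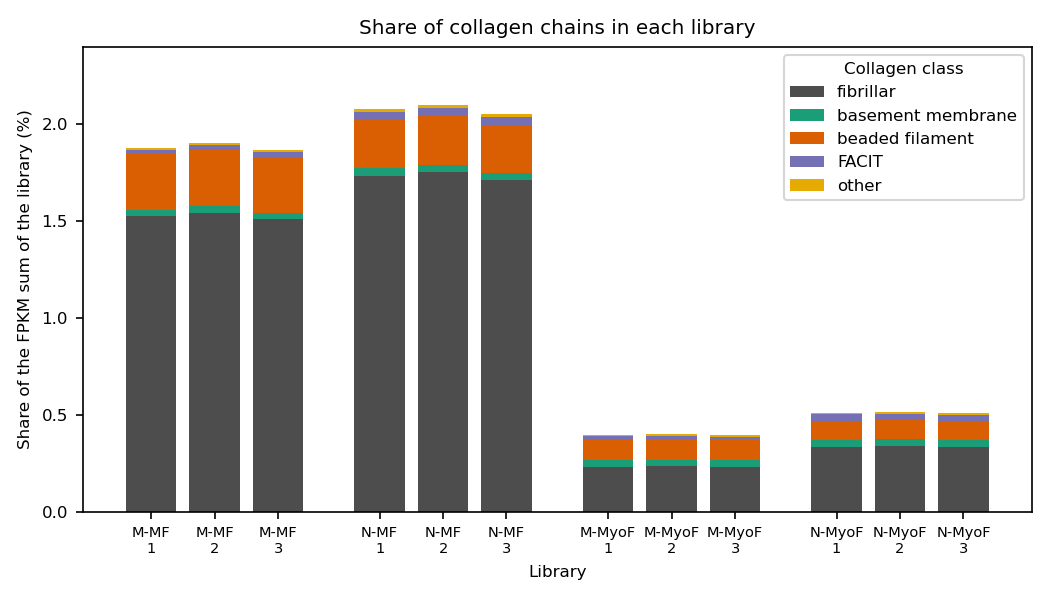
Share of each library's FPKM sum held by collagen chains, in %, stacked by class, 1 bar per library. M-MF bars reach 1.87% to 1.91% and N-MF bars 2.06% to 2.10%, while M-MyoF bars reach 0.395% to 0.401% and N-MyoF bars 0.509% to 0.515%.

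The make-up of the collagen pool differed between subgroups and between states. Fibrillar chains made up 81.0% of the collagen FPKM in M-MF and 83.3% in N-MF, but 58.2% in M-MyoF and 65.3% in N-MyoF. Type VI chains made up 15.3% in M-MF, against 12.1% in N-MF, and 26.1% in M-MyoF, against 18.9% in N-MyoF. Type IV chains held 1.81% in M-MF and 1.90% in N-MF, against 8.87% in M-MyoF and 7.22% in N-MyoF. FACIT chains held 1.27% in M-MF and 1.90% in N-MF, and 4.67% in M-MyoF and 6.86% in N-MyoF. Col3a1 was the most abundant chain in every group, and Col1a1 came next in every group. Among all genes Col3a1 ranked 7 in M-MF, 13 in N-MF, 135 in M-MyoF and 68 in N-MyoF.

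**Figure D2:**
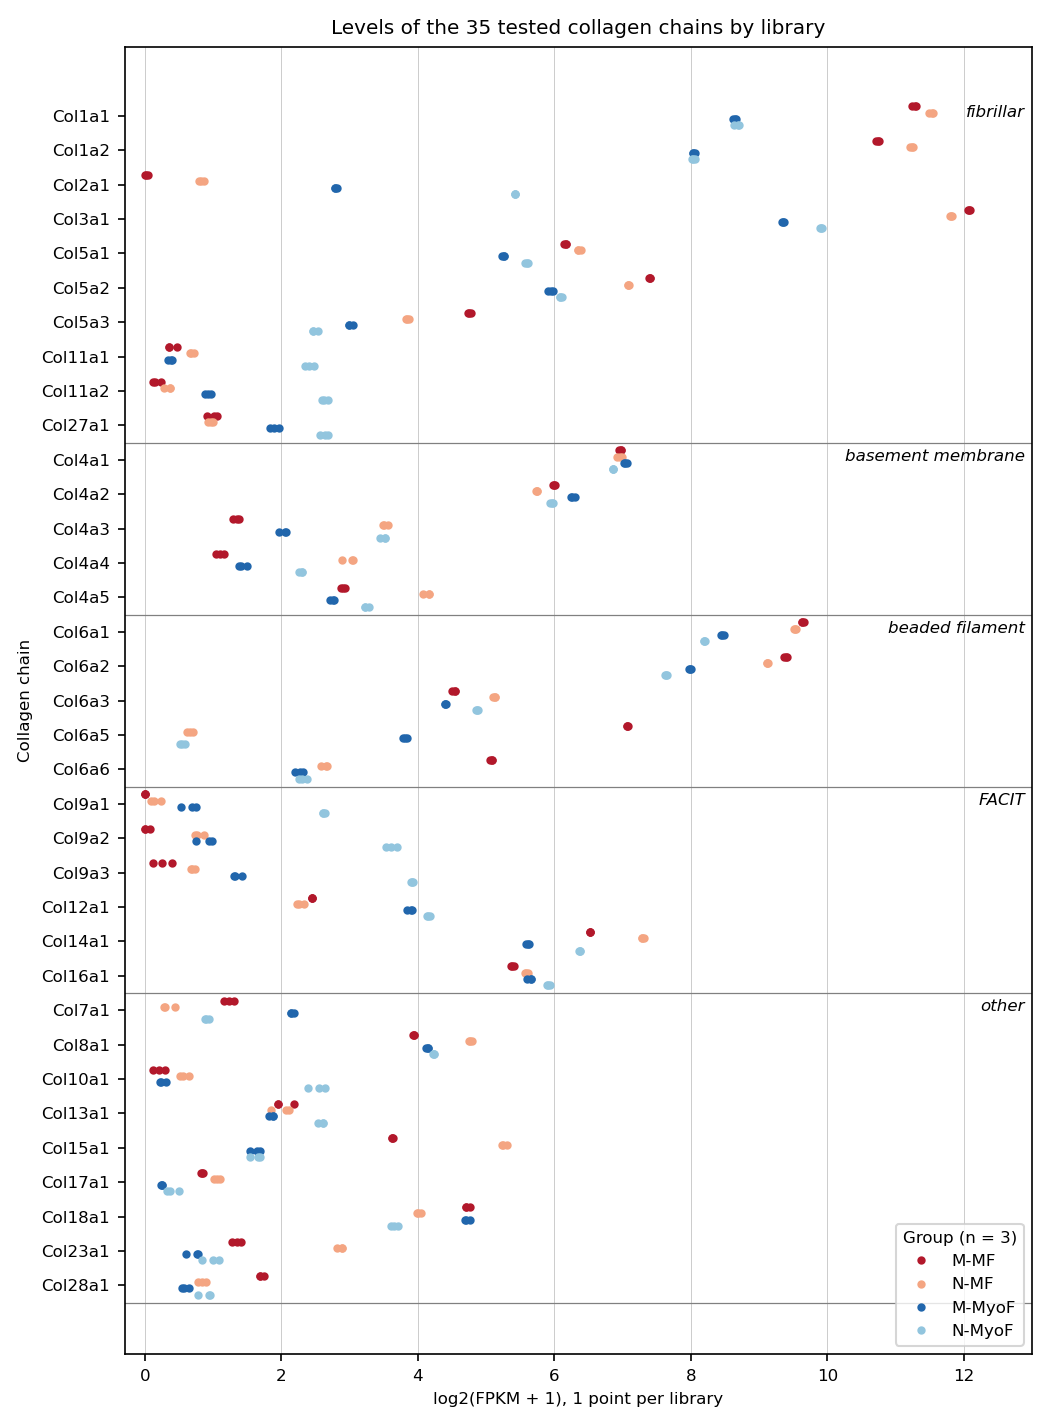
Level of the 35 tested collagen chains in each library, as log2(FPKM + 1), with 4 groups of 3 points per chain. Type I and III chains and, of type VI, Col6a1 and Col6a2 sit at the right. Cartilage chains such as Col2a1 and Col9a3 are highest in N-MyoF. The Col6a5 points of M-MF stand near 7 while those of N-MF stay under 1.

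A chain was tested when it reached 1 FPKM in at least 3 libraries, which 35 of the 44 did. The other 9 were not, and their values come at the end of the report. Differences below are log2 fold changes of FPKM + 1 with their SE, from 1 limma model of the 4 groups over 13300 genes. A chain passed at an adjusted p under 0.05.

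M-MF were set against N-MF to ask what changes in matrix fibroblasts when the lung carries metastases. The type VI chains Col6a5 and Col6a6 were far higher in M-MF, and the chains of the alpha3 and alpha4 basement membrane network together with Col15a1 and Col23a1 were the most reduced. Of the 35 chains, 12 were higher and 20 lower, where 46.3% of all genes were higher and 31.8% lower (78.1% called in all). At least 2-fold, 2 chains were higher and 5 lower, where 9.32% of all genes were higher and 2.54% lower (11.9% in all). Col6a5 and Col7a1 reached 1 FPKM in metastasis libraries alone, Col28a1 in M-MF alone and Col17a1 in N-MF alone. They entered the test through the groups where they were high, so their direction was set and their values are a description. The median log2 fold change of the chains was -0.20, against 0.08 over all genes. Quantile normalization, which moved the median of all genes to -0.10, gave 9 chains higher and 25 lower of 38 tested.

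Fibrillar chains moved little and in both directions, with 3 higher, 6 lower and none 2-fold. Col3a1, the single chain of type III fibrils, was at 4303, 4349.9 and 4265 FPKM in M-MF, against 3605, 3640.2 and 3551 in N-MF (0.26 ± 0.014, limma adjusted p = 1.91e-09). Col1a1, which gives type I its alpha1 chains, was at 2487, 2528 and 2421 FPKM in M-MF, against 2960.3, 3002 and 2872 in N-MF (-0.25 ± 0.023). Col1a2, the other type I chain, was at 1705, 1727 and 1680.4 FPKM in M-MF, against 2427, 2445 and 2382 in N-MF (-0.50 ± 0.016). The groups did not overlap for any of these chains, so that type III transcript was higher and both type I transcripts lower in M-MF.

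The type V chains, which start and limit the width of type I fibrils, did not move as one. Col5a3 was at 25.9, 25.6 and 26.5 FPKM in M-MF, against 13.2, 13.6 and 13.3 in N-MF (0.91 ± 0.033, limma adjusted p = 3.64e-11). Col5a2 was at 168, 166 and 168 FPKM in M-MF, against 135, 134 and 134 in N-MF (0.31 ± 0.02), a difference that came to 0.00102 after quantile normalization. Col5a1 was at 70.8, 70.9 and 69.6 FPKM in M-MF, against 82.6, 80.1 and 80.3 in N-MF (-0.20 ± 0.022). Col5a3 had the largest difference of the type V chains, and the groups did not overlap for any of them. The cartilage fibrillar chains Col2a1 (-0.81), Col11a1 (-0.30) and Col11a2 (-0.17) were lower, from N-MF means of 0.773, 0.607 and 0.263 FPKM, levels at which a pseudocount of 1 sets most of the value. Col11a2 did not pass without the 4 libraries numbered 3 (adjusted p = 0.107). Col27a1, of the minor fibrils, did not pass (0.026 ± 0.053).

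In type VI, Col6a5 was at 133, 134 and 133 FPKM in M-MF, against 0.53, 0.63 and 0.58 in N-MF (6.41 ± 0.036, limma adjusted p = 1.76e-18). It was the chain with the largest difference of all 35, and it ranked 7 of 44 by level in M-MF and 33 of 44 in N-MF. It reached 1 FPKM in metastasis libraries alone, so its direction was set by the filter, as said above. Its neighbour Col6a6 was at 32.3, 32.8 and 32.9 FPKM in M-MF, against 5.31, 5.33 and 4.99 in N-MF (2.44 ± 0.042, limma adjusted p = 2.71e-14). All M-MF libraries were above all N-MF libraries for both genes, whose promoter letters are given above. Col6a3, the chain that usually completes the type VI trimer, was lower, at 21.6, 22.2 and 22.2 FPKM in M-MF, against 33.4, 34.02 and 33.98 in N-MF (-0.60 ± 0.022). Col6a1 was at 791, 809.9 and 793 FPKM in M-MF, against 735, 746 and 728 in N-MF (0.12 ± 0.016), and went to 0.00456 with equal sums (adjusted p = 0.792), -0.0204 with median-ratio scaling and -0.0525 with quantile normalization. Col6a2 was at 672, 677 and 656 FPKM in M-MF, against 555, 559.9 and 552 in N-MF (0.27 ± 0.017). The trimer partners shared by all type VI molecules were within 0.27 on the log2 scale of their N-MF level, while the alternative chains differed by 2.44 and 6.41. Mesothelial markers summed to 277 to 282 FPKM in M-MF, against 29.2 to 30.2 in N-MF (8 of 9 tested higher). The mesothelial marker Bnc1 reached 1 FPKM in metastasis libraries alone and had to be higher. Markers of carcinoma epithelium summed to 299 to 307 FPKM in M-MF, against 14.97 to 16.9 in N-MF. Of the 6 carcinoma markers tested 4 were higher and 1 lower (Cdh1, 1.5 FPKM in M-MF and 1.81 in N-MF), and without the keratins Krt8 and Krt18 the list summed to 14.6 to 16.6 FPKM in M-MF, against 5.69 to 5.98 in N-MF. Their part in the type VI values was not tested.

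In the basement membrane class, Col4a3 was at 1.44, 1.55 and 1.6 FPKM in M-MF, against 10.8, 10.3 and 10.2 in N-MF (-2.18 ± 0.042, limma adjusted p = 7.88e-14). Col4a4, which starts beside it, was at 1.15, 1.23 and 1.05 FPKM in M-MF, against 7.22, 7.25 and 6.41 in N-MF (-1.89 ± 0.054). Col4a5, the partner of both in that network, was at 6.66, 6.33 and 6.51 FPKM in M-MF, against 16.9, 15.8 and 16.9 in N-MF (-1.23 ± 0.036). All 3 chains of the alpha3, alpha4 and alpha5 network were thus lower at least 2-fold, with no overlap. The common network did not follow: Col4a1 was at 125, 125 and 122 FPKM in M-MF, against 126, 124 and 119 in N-MF, and did not pass (0.0131 ± 0.021, adjusted p = 0.578). It was lower, at -0.10, -0.12 and -0.26, after equal-sum, median-ratio and quantile scaling. Col4a2, which shares its start region, was at 62.5, 63.6 and 61.9 FPKM in M-MF, against 52.7, 51.96 and 52.6 in N-MF (0.25 ± 0.021), but did not pass with quantile normalization (0.0264, adjusted p = 0.244). Type 1 alveolar cells also make the alpha3 and alpha4 chains; their 7 markers summed to 407 to 419 FPKM in M-MF, against 381 to 383 in N-MF, with 2 higher and 5 lower. Most of the sum was Pdpn, at 304 FPKM in M-MF and 167 in N-MF; without it the other 6 summed to 106 to 113 FPKM in M-MF, against 214 to 216 in N-MF, with Ager at 68.6 in M-MF and 154 in N-MF. Their part was not tested. Endothelial cells make the alpha1 and alpha2 chains. Their 9 markers summed to 917 to 937 FPKM in M-MF, against 185 to 188 in N-MF, most of it Car4 (702 against 17.8 FPKM). Of these markers 7 were higher and 2 lower in M-MF, 1 of the latter at least 2-fold, and their part was not tested.

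Of the FACIT chains 1 was higher and 5 were lower, none 2-fold. Col14a1, which coats type I fibrils, was the most abundant, at 90.8, 91.3 and 91.02 FPKM in M-MF, against 158, 155 and 155 in N-MF (-0.77 ± 0.019). Col16a1 averaged 40.8 ± 0.554 FPKM in M-MF and 47.02 ± 0.875 in N-MF (SD, n = 3 each; -0.20). Col12a1, a fibril-surface chain of tension-bearing tissue, was higher at 4.45 ± 0.01 FPKM in M-MF and 3.83 ± 0.19 in N-MF (0.17 ± 0.036), but did not pass after median-ratio scaling (adjusted p = 0.116) or quantile normalization. The cartilage chains Col9a2 (-0.76) and Col9a3 (-0.44) were lower, from N-MF means under 1 FPKM. Col9a1 was listed at 0, 0 and 0 FPKM in M-MF, against 0.18, 0.1 and 0.06 in N-MF (-0.15 ± 0.061, adjusted p = 0.0367). That call did not hold with the replicate number as a block (adjusted p = 0.0535) or without any 1 of M-MF libraries 1, 2 and 3 and N-MF libraries 1 and 2 (adjusted p = 0.06 to 0.147).

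Among the other collagens, the endostatin-bearing pair of vessel and epithelial basement membranes moved in opposite directions. Col15a1 was at 11.3, 11.5 and 11.3 FPKM in M-MF, against 36.8, 38.5 and 36.5 in N-MF (-1.63 ± 0.048, limma adjusted p = 4.61e-12). Col18a1 was at 25.1, 26.04 and 25.1 FPKM in M-MF, against 14.98, 14.8 and 15.5 in N-MF (0.72 ± 0.034). Both sets of libraries were apart, and the order of the pair turned round, with Col15a1 below Col18a1 in M-MF and above it in N-MF. Col23a1, a transmembrane collagen, was at 1.64, 1.54 and 1.42 FPKM in M-MF, against 6.03, 6.38 and 6.38 in N-MF (-1.52 ± 0.07). Col13a1, another transmembrane collagen, was at 2.85, 3.54 and 2.85 FPKM in M-MF, against 3.18, 2.59 and 3.32 in N-MF; these overlap and it did not pass (0.018 ± 0.075). Col8a1, a short-chain collagen of vessel walls, averaged 14.3 ± 0.04 FPKM in M-MF and 26.3 ± 0.475 in N-MF (-0.83 ± 0.024). Col7a1, the anchoring fibril chain of stratified epithelium, averaged 1.35 ± 0.121 FPKM in M-MF and 0.263 ± 0.0839 in N-MF (0.90 ± 0.057), and Col28a1, known from peripheral nerve, 2.25 ± 0.0839 FPKM in M-MF and 0.783 ± 0.0702 in N-MF (0.87 ± 0.058). Carcinoma markers, given above, and Schwann cell markers, which summed to 2.25 to 2.52 FPKM in M-MF against 2.7 to 3.18 in N-MF, stand beside these 2 chains; their part was not tested. Col17a1, a hemidesmosome collagen, and Col10a1, of hypertrophic cartilage, were lower (-0.22 and -0.36).

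**Figure D3:**
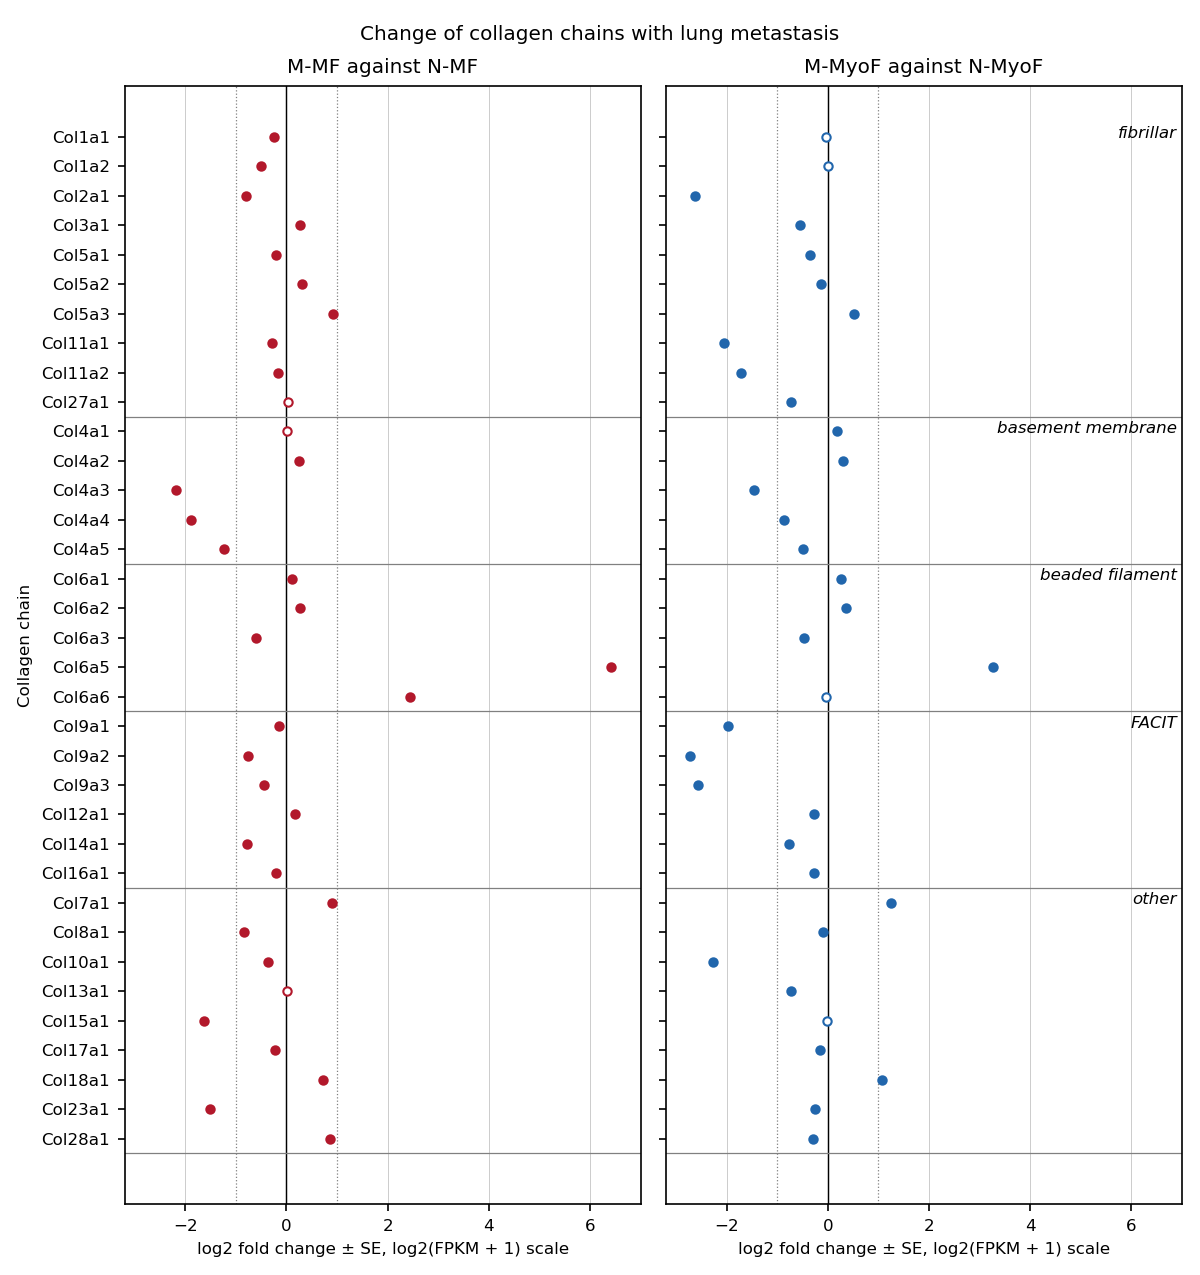
Log2 fold change of each tested chain on the log2(FPKM + 1) scale, M-MF against N-MF on the left and M-MyoF against N-MyoF on the right, with bars of 1 SE that are mostly smaller than the points. Filled points passed at an adjusted p under 0.05, and dotted lines mark 2-fold; Col6a5 lies furthest right in both panels, at 6.41 and 3.27, and the cartilage chains lie far left in the right panel.

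M-MyoF were set against N-MyoF in the same way. Cartilage collagens of 4 types were the most reduced chains in M-MyoF, Col6a5, Col7a1 and Col18a1 were higher, and the chains of type I did not pass the test. Of the 35 chains, 8 were higher and 23 lower, where 49.1% of all genes were higher and 31.6% lower (80.7% called in all). At least 2-fold, 3 were higher and 8 lower, where 11.4% of all genes were higher and 3.24% lower (14.6% in all). Of those 8, Col9a1, Col9a2, Col10a1, Col11a1 and Col11a2 reached 1 FPKM in the 3 N-MyoF libraries alone. They entered the test through the group where they were high and had to be lower in M-MyoF, so their values are a description. Of the 3 higher, Col6a5 and Col7a1 reached 1 FPKM in metastasis libraries alone. These chains had to be higher, and their values are a description too. The median log2 fold change of the chains was -0.27, against 0.11 over all genes; equal-sum, median-ratio and quantile scaling moved that last median to -0.05, -0.03 and -0.10.

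Type II collagen is the main fibril of cartilage, and Col2a1 was at 5.88, 6 and 5.92 FPKM in M-MyoF, against 41.9, 41.9 and 41.8 in N-MyoF (-2.63 ± 0.035, limma adjusted p = 2.74e-15). Col9a1, of the type IX trimer that decorates type II fibrils, was at 0.44, 0.61 and 0.68 FPKM in M-MyoF, against 5.07, 5.12 and 5.24 in N-MyoF (-1.97 ± 0.061). Col9a2 was at 0.91, 0.68 and 0.98 FPKM in M-MyoF, against 11.9, 10.6 and 11.2 in N-MyoF (-2.72 ± 0.067). All chains named so far were lower in every M-MyoF library than in any N-MyoF library. Col9a3 was at 1.48, 1.69 and 1.5 FPKM in M-MyoF, against 14.1, 14.2 and 13.9 in N-MyoF (-2.56 ± 0.063). Col11a2, of type XI, the core of the type II fibril, was at 0.96, 0.9 and 0.84 FPKM in M-MyoF, against 5.06, 5.15 and 5.43 in N-MyoF (-1.71 ± 0.052). Col11a1 averaged 0.29 ± 0.0265 FPKM in M-MyoF and 4.32 ± 0.249 in N-MyoF (SD, n = 3 each; -2.04 ± 0.052). Col10a1, made by hypertrophic chondrocytes, averaged 0.197 ± 0.0379 FPKM in M-MyoF and 4.76 ± 0.499 in N-MyoF (-2.26 ± 0.069), and Col27a1 2.73 ± 0.176 and 5.19 ± 0.228 (-0.73 ± 0.053). Chondrocyte markers that are not collagens fell as well: 9 of 9 tested were lower, and the 11 listed summed to 79.5 to 80.8 FPKM in M-MyoF, against 683 to 703 in N-MyoF. Among them Chad was at 14.96 FPKM in M-MyoF and 211 in N-MyoF, Cytl1 at 18.3 and 356, and Acan, the main cartilage proteoglycan, at 0.207 and 3.91. Of the markers tested, Acan, Snorc and Hapln1 reached 1 FPKM in the N-MyoF libraries alone, so they had to be lower in M-MyoF. In MF, 6 of the 11 markers averaged under 0.05 FPKM in M-MF and none did in N-MF, where the lowest, Matn3, averaged 0.05. The part of chondrocytes in the type II, IX, X and XI values was not tested.

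**Figure D4:**
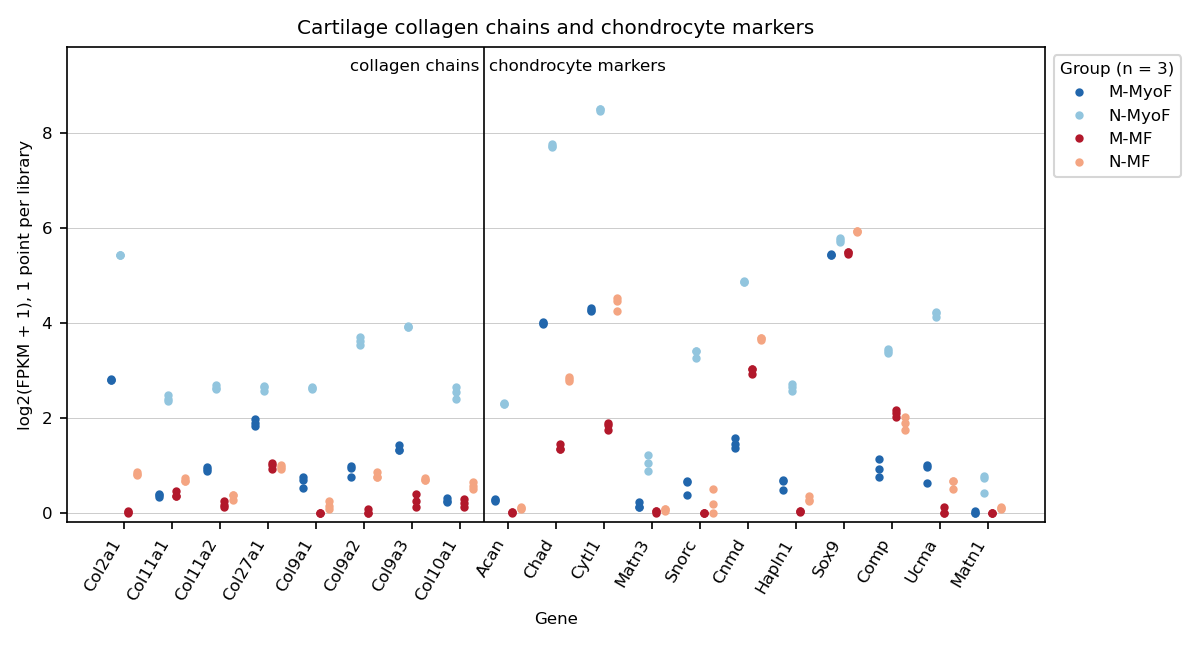
Level of 8 cartilage collagen chains (left of the line) and of 11 chondrocyte markers (right of it), as log2(FPKM + 1), 1 point per library. On both sides of the line most genes are highest in N-MyoF, such as Col2a1 at 41.9 and Cytl1 at 356 FPKM on average, while Sox9 averages 42.2 to 59.8 FPKM over the 4 groups.

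Interstitial fibrillar chains differed less in M-MyoF. Col1a1 was at 402, 402 and 392 FPKM in M-MyoF, against 411, 417 and 396 in N-MyoF (-0.0337 ± 0.023, adjusted p = 0.201); with the replicate number as a block the same difference had an adjusted p of 0.00128. Col1a2 was at 262, 265 and 259.7 FPKM in M-MyoF, against 261, 265 and 258 in N-MyoF (0.00361 ± 0.016, adjusted p = 0.848). Both were lower, at -0.23, -0.20 and -0.25 for Col1a1 and -0.19, -0.16 and -0.24 for Col1a2, after equal-sum, median-ratio and quantile scaling. Col3a1 was lower, at 653, 659 and 648 FPKM in M-MyoF, against 963, 969.9 and 951 in N-MyoF (-0.56 ± 0.014). Col5a1 was at 37.4, 37.5 and 36.5 FPKM in M-MyoF, against 47.6, 48.05 and 46.7 in N-MyoF (-0.35 ± 0.022). Col5a2 was at 62.2, 60.9 and 59.3 FPKM in M-MyoF, against 67.9, 66.7 and 66.9 in N-MyoF (-0.14 ± 0.02). The remaining type V chain went the other way: Col5a3 was at 6.94, 6.92 and 7.31 FPKM in M-MyoF, against 4.8, 4.52 and 4.52 in N-MyoF (0.52 ± 0.033).

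Type VI again held the largest rise. Col6a5 was at 13.3, 13.1 and 12.7 FPKM in M-MyoF, against 0.42, 0.45 and 0.5 in N-MyoF (3.27 ± 0.036, limma adjusted p = 4.9e-16). Its neighbour Col6a6 was at 3.6, 3.81 and 4 FPKM in M-MyoF, against 3.94, 3.77 and 4.16 in N-MyoF, and did not pass (-0.0454 ± 0.042, adjusted p = 0.328), though it was lower by -0.17 to -0.23 under the 3 scalings. Col6a1 was at 351, 358 and 347 FPKM in M-MyoF, against 292, 294 and 292 in N-MyoF (0.27 ± 0.016). The Col6a5 libraries of M-MyoF lay apart from those of N-MyoF, while those of Col6a6 overlapped. Col6a2 was at 252, 256 and 249 FPKM in M-MyoF, against 197, 201 and 196 in N-MyoF (0.35 ± 0.017). Col6a3 was at 20.2, 20.2 and 20.1 FPKM in M-MyoF, against 28.1, 28.5 and 27.96 in N-MyoF (-0.46 ± 0.022). As in MF on the deposited values, alpha1 and alpha2 were slightly higher and alpha3 was lower. Mesothelial markers summed to 266 to 275 FPKM in M-MyoF, against 139.7 to 144 in N-MyoF (7 of 9 tested higher), and their part was not tested. Bnc1 had to be higher here too, for the reason given above.

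In type IV, Col4a3 was at 3.19, 3.13 and 2.92 FPKM in M-MyoF, against 10.4, 9.91 and 10.5 in N-MyoF (-1.47 ± 0.042, limma adjusted p = 2.78e-12). Col4a4 was at 1.65, 1.83 and 1.6 FPKM in M-MyoF, against 3.95, 3.91 and 3.78 in N-MyoF (-0.86 ± 0.054). Col4a5 was at 5.53, 5.75 and 5.79 FPKM in M-MyoF, against 8.39, 8.69 and 8.31 in N-MyoF (-0.50 ± 0.036). Here too the alpha3, alpha4 and alpha5 chains were lower with no overlap, and beside them the type 1 alveolar markers summed to 312 to 335 FPKM in M-MyoF, against 751 to 777 in N-MyoF, with 1 higher and 6 lower. Their part was not tested. Col4a1 was at 133, 131 and 129 FPKM in M-MyoF, against 115, 115 and 115 in N-MyoF (0.18 ± 0.021), and went to -0.00902 with equal sums, 0.0208 with median-ratio scaling (adjusted p = 0.384) and -0.14 with quantile normalization. Col4a2 was at 77.6, 74.6 and 75.7 FPKM in M-MyoF, against 62.01, 61.6 and 60.5 in N-MyoF (0.30 ± 0.021), but did not pass with quantile normalization (0.00846, adjusted p = 0.706). Endothelial markers summed to 591 to 596 FPKM in M-MyoF, against 469 to 482 in N-MyoF, with 5 higher and 3 lower and none 2-fold. Their part in the alpha1 and alpha2 values was not tested.

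All 6 FACIT chains were lower in M-MyoF. Besides the type IX chains, Col14a1 was at 48.1, 48.4 and 46.8 FPKM in M-MyoF, against 81.9, 82.1 and 81.4 in N-MyoF (-0.77 ± 0.019), and Col12a1 and Col16a1 were both at -0.27. Col18a1 was at 24.8, 26.2 and 24.98 FPKM in M-MyoF, against 12.03, 11.6 and 11.2 in N-MyoF (1.06 ± 0.034). Col15a1 was at 2.11, 2.22 and 1.9 FPKM in M-MyoF, against 2.16, 2.23 and 1.91 in N-MyoF, and did not pass (-0.0108 ± 0.048, adjusted p = 0.843). Of this endostatin-bearing pair, only Col18a1 thus passed the test in MyoF on the deposited values; Col15a1 was lower by -0.12 to -0.18 under the 3 scalings. Col7a1 averaged 3.45 ± 0.0643 FPKM in M-MyoF and 0.87 ± 0.0436 in N-MyoF (1.25 ± 0.057), beside carcinoma markers that summed to 707 to 729 FPKM in M-MyoF, against 68.2 to 71.5 in N-MyoF. Of those 6 markers 3 were higher and 2 lower: Cdh1 was at 5.6 FPKM in M-MyoF and 7.14 in N-MyoF, and without Krt8 and Krt18 the list summed to 34.4 to 35.6 FPKM in M-MyoF, against 21.95 to 22.4 in N-MyoF. Their part was not tested. Col13a1 was at 2.68, 2.54 and 2.67 FPKM in M-MyoF, against 5.09, 5.11 and 4.82 in N-MyoF (-0.73 ± 0.075). Col23a1 was at 0.69, 0.52 and 0.72 FPKM in M-MyoF, against 0.99, 1.13 and 0.78 in N-MyoF (-0.26 ± 0.07). Both transmembrane chains were lower, in each case with no overlap. Col8a1, Col17a1 and Col28a1 differed by -0.0942, -0.15 and -0.30, and Col17a1 did not pass without N-MyoF library 2 (adjusted p = 0.0999), in a fit on those groups alone (0.0645) or with a pseudocount of 5 (0.0532). Schwann cell markers, set beside Col28a1, summed to 11.03 to 11.7 FPKM in M-MyoF, against 41.3 to 43.9 in N-MyoF, and their part was not tested.

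The metastasis effects in MF and in MyoF rest on separate libraries. Of the chains, 17 were lower in both, which is 85.0% of the 20 lower in MF and 73.9% of the 23 lower in MyoF; over all genes these shares were 66.5% and 66.9%. Higher in both were 7 chains, 58.3% of the 12 higher in MF and 87.5% of the 8 higher in MyoF, against 79.4% and 74.8% over all genes. Col3a1, Col5a2, Col12a1 and Col28a1 were higher in M-MF and lower in M-MyoF, each against its normal group. These 4 are 33.3% of the chains higher in MF and 17.4% of those lower in MyoF, against 9.43% and 13.8% over all genes (580 genes). The excess rests on calls with limits. In MF, Col5a2 and Col12a1 did not pass after quantile normalization (limma adjusted p = 0.961 and 0.578), nor did Col12a1 after median-ratio scaling. Col28a1 entered the test through M-MF alone. No chain was lower in M-MF and higher in M-MyoF. Over all genes 560 were, 13.2% of those lower in MF and 8.58% of those higher in MyoF. With 20 and 8 chains on those sides, the absence is not read as a trait of the collagens. The counts of this paragraph include chains whose direction the filter set, as named above.

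The difference between these effects, MF minus MyoF, was tested in the same model. It passed for 31 chains, 17 with a positive and 14 with a negative difference, where 64.4% of all genes passed (26.4% positive, 38.0% negative). At least 2-fold it passed for 13 chains, 10 positive and 3 negative, where 7.10% of all genes did. Col6a5 (3.14 ± 0.05, limma adjusted p = 1.09e-13) and Col6a6 (2.48 ± 0.059) had the largest positive differences. The 7 cartilage chains were lower in both subgroups, and on this scale their differences were 2.11 for Col9a3, 1.96 for Col9a2, 1.90 for Col10a1, 1.82 for Col2a1, 1.81 for Col9a1, 1.75 for Col11a1 and 1.54 for Col11a2. They averaged under 1 FPKM in N-MF, and with a pseudocount of 1 such a chain cannot be 2-fold lower in M-MF, so the size of the drop in MyoF fixes the sign, and these 7 of the 10 positive values are a description. In FPKM, Col2a1 averaged 0.0133 in M-MF and 0.773 in N-MF, and Col9a2 0.0167 in M-MF and 0.727 in N-MF, a larger ratio between the states than in MyoF for both. With a pseudocount of 0.1 the difference of Col2a1 was -0.15 (adjusted p = 0.292) and that of Col9a2 0.73 (adjusted p = 0.0202). Col28a1 had 1.17 ± 0.082, but reached 1 FPKM in the M-MF libraries alone. It entered the test through the group where it was high, and its value is a description. Negative differences, an MF effect below the MyoF effect, were found for Col15a1 (-1.62 ± 0.068), Col23a1 (-1.26 ± 0.099) and Col4a4 (-1.03 ± 0.076). Col23a1 averaged 0.967 FPKM in N-MyoF, so with a pseudocount of 1 it could not be 2-fold lower in M-MyoF. The size of its drop in MF fixes the sign, and its value is a description. In FPKM, Col23a1 in M-MF was at 24.5% of N-MF, and in M-MyoF at 66.6% of N-MyoF. The type III effect also differed, by 0.82 ± 0.02, and so did those of Col1a1 (-0.21, but -0.0677 with adjusted p = 0.0575 after quantile normalization) and Col1a2 (-0.51), while Col14a1 (-0.00601 ± 0.026, adjusted p = 0.855) did not pass, nor did Col4a2, Col16a1 and Col17a1.

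MF and MyoF were also set against each other within each state, and type I, III and VI chains were higher in MF while most cartilage chains were lower. In metastasis lungs, M-MF against M-MyoF, 17 chains were higher and 14 lower, where 19.1% of all genes were higher and 66.0% lower (85.1% called in all). In normal lungs, N-MF against N-MyoF, 20 were higher and 13 lower, where 24.5% of all genes were higher and 57.6% lower (82.0% called in all). At least 2-fold, 11 chains were higher and 3 lower in M-MF (4.74% and 8.82% of all genes, 13.6% in all), and 8 were higher and 9 lower in N-MF (4.88% and 11.9% of all genes, 16.8% in all). Of the 9, Col9a1, Col9a2, Col10a1, Col11a1 and Col11a2 reached 1 FPKM in N-MyoF alone and had to be lower in N-MF. Col2a1 and Col9a3 reached it in MyoF libraries alone and had to be lower in MF in both states. Col28a1 reached it in M-MF alone and had to be higher there than in M-MyoF. Col17a1 reached it in N-MF alone and had to be higher there than in N-MyoF. These directions are a description. The median of all genes was -0.29 in M-MF against M-MyoF and -0.21 in N-MF against N-MyoF, and median-ratio scaling put these at -0.01 and 0.03. Median-ratio scaling and quantile normalization gave 22 higher and 10 lower, and 24 higher and 11 lower, in M-MF against M-MyoF.

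Relative to MyoF of the same state, Col1a1 was higher in MF, by 2.63 ± 0.023 in metastasis and 2.85 ± 0.023 in normal lungs, Col1a2 by 2.70 ± 0.016 and 3.20 ± 0.016, and Col3a1 by 2.72 ± 0.014 and 1.90 ± 0.014. Col6a1 was higher in MF by 1.18 ± 0.016 in metastasis and 1.33 ± 0.016 in normal lungs, and Col6a2 by 1.40 ± 0.017 and 1.48 ± 0.017. These type I, III and VI chains were thus higher in MF in both states. Col6a5 was higher by 3.26 ± 0.036 in M-MF against M-MyoF, and by 0.12 ± 0.036 in N-MF against N-MyoF, where it averaged 0.58 ± 0.05 and 0.457 ± 0.0404 FPKM and did not pass in a fit on those groups alone (adjusted p = 0.0519). Col15a1 was higher by 2.01 ± 0.048 in metastasis and 3.63 ± 0.048 in normal lungs. Col2a1 was lower in MF by -2.77 ± 0.035 in metastasis and -4.60 ± 0.035 in normal lungs, and Col12a1 by -1.44 ± 0.036 and -1.88 ± 0.036. Levels of Col4a1 were close in all groups, with means of 131 FPKM in M-MyoF, the highest, and 115 in N-MyoF, the lowest, and its difference in M-MF against M-MyoF was -0.0779 as deposited but 0.0266, 0.24 and 0.00417 with equal-sum, median-ratio and quantile scaling.

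Ratios within a library do not change when all its values are multiplied by the same factor, as in equal-sum and median-ratio scaling. Quantile normalization uses no such factor and can change them. Ratios of the deposited values were set side by side for chains of one trimer or of paired genes. The ratio of Col3a1 to Col1a1 was 1.74 ± 0.0213 in M-MF, against 1.22 ± 0.0127 in N-MF, and 1.64 ± 0.0151 in M-MyoF, against 2.36 ± 0.0382 in N-MyoF (SD, n = 3 each). It was higher with metastasis in MF and lower in MyoF. The ratio of Col1a1 to Col1a2 was 1.45 ± 0.0122 in M-MF, against 1.22 ± 0.0112 in N-MF; in MyoF it overlapped, at 1.52 ± 0.0139 in M-MyoF and 1.56 ± 0.0231 in N-MyoF (exact two-sided permutation p = 0.2), though it was lower in M-MyoF in all 3 pairs of libraries with the same number. The share of Col5a3 relative to Col5a1 was 0.3697 ± 0.0102 in M-MF, against 0.165 ± 0.00522 in N-MF, and 0.1903 ± 0.00886 in M-MyoF, against 0.0973 ± 0.00344 in N-MyoF, higher with metastasis in both subgroups. Except where overlap is named, the ratios given in these paragraphs did not overlap between states and had an exact two-sided permutation p of 0.1, the smallest possible with 3 against 3 libraries. Paired by library number, every ratio given moved one way in all 3 pairs, for which the exact two-sided p is 0.25, the smallest that 3 pairs allow.

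For type VI, Col6a5 stood at 6.06 ± 0.0992 times the level of Col6a3 in M-MF, against 0.0172 ± 0.00133 in N-MF, and at 0.647 ± 0.0127 in M-MyoF, against 0.0162 ± 0.00151 in N-MyoF. Col6a6 stood at 1.48 ± 0.0104 times the level of Col6a3 in M-MF, against 0.154 ± 0.00644 in N-MF, and at 0.189 ± 0.0105 in M-MyoF, against 0.1405 ± 0.00823 in N-MyoF. Among the chains that can complete the type VI trimer, Col6a5 was thus the highest per length in M-MF and Col6a3 in the other groups. Even in M-MF, Col6a5 was at 0.167 ± 0.00174 times Col6a1. The ratio of Col6a1 to Col6a2 was 1.19 in M-MF, against 1.33 in N-MF, and 1.39 in M-MyoF, against 1.48 in N-MyoF.

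For paired genes that start head to head, the ratio of Col4a1 to Col4a2 was 1.98 ± 0.0173 in M-MF, against 2.34 ± 0.0646 in N-MF, and 1.72 ± 0.0233 in M-MyoF, against 1.88 ± 0.0241 in N-MyoF. That of Col4a3 to Col4a4 was 1.35 ± 0.155 in M-MF, against 1.505 ± 0.0861 in N-MF, with overlap (exact two-sided permutation p = 0.3) but lower in M-MF in all 3 pairs with the same number, and 1.82 ± 0.111 in M-MyoF, against 2.65 ± 0.1205 in N-MyoF. Col15a1 stood at 0.447 ± 0.00562 times Col18a1 in M-MF, against 2.47 ± 0.126 in N-MF, and at 0.08202 ± 0.00517 in M-MyoF, against 0.181 ± 0.0111 in N-MyoF. This ratio was lower with metastasis in both subgroups.

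**Figure D5:**
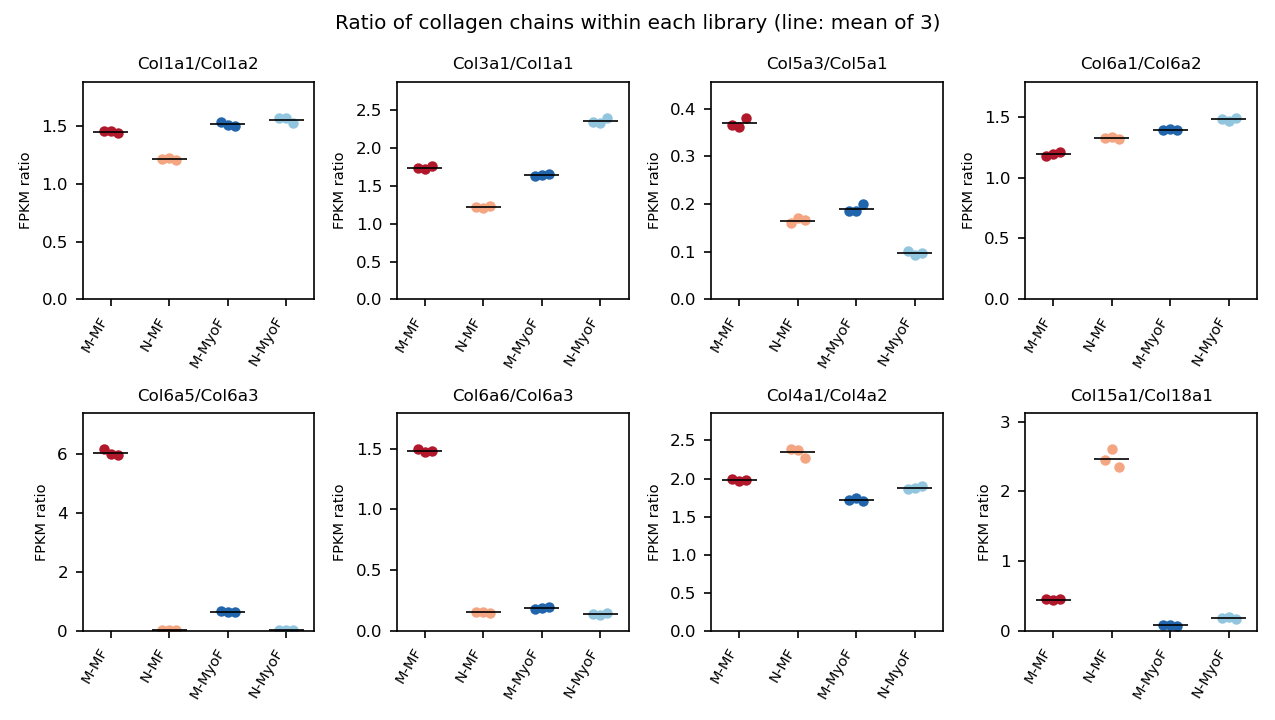
Ratio of FPKM of chain pairs within each library, 3 points per group with a line at their mean and axes from 0. Col6a5/Col6a3 reaches 6.06 in M-MF and stays under 1 in the other groups, Col3a1/Col1a1 is higher in M-MF than in N-MF but lower in M-MyoF than in N-MyoF, and Col15a1/Col18a1 is highest in N-MF.

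On the chromosomes, several chains lie next to each other, as RefSeq on GRCm38.p6 places them. Col6a6 (chr9:105689417-105828246), Col6a5 (chr9:105856070-105962463) and Col6a4 (chr9:105990318-106096828) follow each other with gaps of 27823 and 27854 bases. From M-MF against N-MF, the differences along this row were 2.44 and 6.41, and Col6a4 was not tested, with 0.41, 0.35 and 0.45 FPKM in M-MF, against 0.01, 0.02 and 0.01 in N-MF. Col4a4 (chr1:82448419-82587034) and Col4a3 (chr1:82586921-82722059) overlap by 114 bases and Col4a1 (chr8:11198423-11312889) and Col4a2 (chr8:11312805-11449287) by 85, so reads from those stretches may count for either gene. Col4a6 and Col4a5 on chromosome X are 1274 bases apart, and Col4a6 stayed under 1 FPKM in every library. Col3a1 and Col5a2 on chromosome 1, 24624 bases apart, were both higher in M-MF against N-MF and both lower in M-MyoF against N-MyoF. Col6a2 and Col6a1 on chromosome 10, 85161 bases apart, were higher in both subgroups on the deposited values, with the exceptions by scaling named above for Col6a1 in MF.

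Genes that make, finish and read collagen were counted from fixed lists. Of 25 genes of synthesis, folding and secretion, 18 were higher and 4 lower in M-MF against N-MF, and 16 higher and 8 lower in M-MyoF against N-MyoF, with medians of 0.36 and 0.16. Over all genes 46.3% were higher and 31.8% lower in M-MF (median 0.08), and 49.1% higher and 31.6% lower in M-MyoF (median 0.11), shares against which the counts of each list below are to be read. P4hb, a subunit of prolyl hydroxylase, averaged 558 FPKM in M-MF and 302 in N-MF (0.88 ± 0.014), and 352 in M-MyoF and 239.7 in N-MyoF (0.55 ± 0.014). Serpinh1, the collagen chaperone Hsp47, averaged 323 FPKM in M-MF and 208 in N-MF (0.63 ± 0.017), and 147 in M-MyoF and 93.4 in N-MyoF (0.65 ± 0.017). Both genes were higher with metastasis in both subgroups. Colgalt2, which adds galactose to hydroxylysine, was lower in M-MF (-1.20 ± 0.036), and Ppib, a prolyl isomerase, was higher in M-MyoF (0.86 ± 0.028).

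Of 9 genes of propeptide removal, 5 were higher and 3 lower in M-MF, and 5 higher and 4 lower in M-MyoF, near the shares over all genes. Tll1 among them reached 1 FPKM in the M-MF libraries alone, so it had to be higher in M-MF. Pcolce2, an enhancer of the C-propeptide protease, averaged 189 FPKM in M-MF and 515 in N-MF (-1.44 ± 0.022), and was also lower in M-MyoF (-1.14 ± 0.022). Its relative Pcolce was lower in M-MF (-0.68 ± 0.03) and higher in M-MyoF (0.98 ± 0.03), and the N-propeptidase Adamts14 was higher in both (1.56 ± 0.049 and 1.61 ± 0.049). Of 5 crosslinking oxidases, 4 were higher and 1 lower in M-MF, with Lox at 166 FPKM in M-MF and 67.9 in N-MF (1.28 ± 0.028), Loxl3 at 0.86 ± 0.035 and Loxl4 at 0.62 ± 0.037. In M-MyoF 2 were higher and 3 lower, with Loxl3 at 0.40 ± 0.035, Loxl1 at -0.46 ± 0.019 and Loxl4 at -1.15 ± 0.037.

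Of 11 tested collagen receptors, 5 were higher and 5 lower in M-MF, and 5 higher and 6 lower in M-MyoF. The shares higher were near those over all genes. Itga2 among them reached 1 FPKM in metastasis libraries alone, so it had to be higher in both subgroups. Itga3 was higher in both (2.17 ± 0.042 and 1.54 ± 0.042); it is listed with the collagen-binding integrins though laminins are its main ligands. Itga1, a receptor of type IV collagen, was higher in M-MF (0.77 ± 0.024) and Itga11, a receptor of fibrillar collagen, lower (-0.92 ± 0.039). In M-MyoF, Antxr2 was higher (0.61 ± 0.024) and Antxr1 lower (-0.79 ± 0.031), both receptors that bind matrix collagens. Of 7 tested genes of collagen breakdown, 4 were higher and 3 lower in M-MF, and 4 higher and 1 lower in M-MyoF. Mmp9 averaged 72.7 FPKM in M-MyoF and 1.87 in N-MyoF, and Mmp8 103 and 1.24; in M-MF they averaged 5.85 and 4.23, against 0.633 and 0.22 in N-MF. Both are proteases stored in neutrophil granules, and the neutrophil marker sums given above moved with them; the part of neutrophils was not tested. Mmp2, a gelatinase of fibroblasts, was lower in both (-0.95 ± 0.023 and -0.87 ± 0.023).

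The 9 chains that were not tested reached at most 1.01 FPKM in any library. Col24a1, a minor fibrillar chain, came closest, with 0.98, 0.91 and 1.01 FPKM in M-MF, against 0.28, 0.25 and 0.2 in N-MF, and 0.31 and 0.217 on average in M-MyoF and N-MyoF. Col8a2, a partner of Col8a1, averaged 0.3 FPKM in M-MF and 0.8 in N-MF, and 0.137 in M-MyoF and 0.807 in N-MyoF. Col20a1 averaged 0.41 FPKM in M-MF and 0.853 in N-MF, and 0.453 in M-MyoF and 0.673 in N-MyoF. Of these, Col24a1 was higher in every M-MF than in any N-MF library, and Col8a2 and Col20a1 were lower. Col26a1 averaged 0.22 FPKM in M-MF and 0.513 in N-MF, and Col22a1 0.69 in M-MyoF and 0.843 in N-MyoF. Col4a6 and Col25a1 stayed at or under 0.44 FPKM in every library, Col6a4 at or under 0.45, and Col19a1 at or under 0.04.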

How the data were processed

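PolyA RNA from 12 libraries was extracted with Trizol, reverse transcribed and amplified by a SMART-seq method and built into libraries with a transposon, per the labels' protocols. The genome build was GRCm38, per the submitters' processing notes; which aligner, counter and annotation were used is not given in the sources used here. Per the file headers, the authors deposited FPKM, scaled for transcript length and library, with 2 decimals. Low values were not whole multiples of a common step, so the read depth is unknown, and precision comes from the spread between libraries alone. No column belonged to an unlisted sample.

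Groups came from the sample titles. Values were analysed as log2(FPKM + 1), which understates differences of low chains, with limma 3.58.1 in R 4.3.3. One model of 4 group means with a variance trend covered all 12 libraries and the 13300 genes that reached 1 FPKM in at least 3 libraries. Benjamini-Hochberg adjustment ran over those genes, with a threshold of 0.05. The model code was tested on simulated data. Ratios of chains were compared by exact two-sided permutation tests. Tables and plots were made with Python 3.11.15, pandas 2.3.3, numpy 2.4.6 and matplotlib 3.10.9.

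The labels do not say what the library numbers 1 to 3 mark. Deviations from group means over 1830 genes at 50 FPKM or more correlated at 0.482 to 0.796 in the 18 pairs with the same number, and at -0.683 to 0.38 in the 36 pairs with different numbers. Each of the 12 libraries correlated best with one of its own number, and a fit with the number as a block was run as an alternative. Other alternatives were a pseudocount of 0.1 or 5, filtering at 5 FPKM or not at all, 3 scalings of the libraries, a fit on the compared groups alone, and fits without single libraries or without those numbered 3.

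The members, classes and lists were chosen with earlier results of these data known. Every tested chain is named. Values in each library are given for the chains of types I, III, V, VI, XIII, XIV and XV and of the pair alpha1 and alpha2 of type IV. They are also given for chains that passed with at least 2-fold and a mean of 5 FPKM in the higher group in either metastasis comparison. From each pathway list the 3 genes with the smallest p are named, and also those whose direction between states the filter set. Chains were classed by hand, all 44 had a RefSeq position on GRCm38.p6, and promoter sequences are RefSeq's.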

Additional observations from a re-analysis of the deposited data

Results flagged for a closer look

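The metastasis effect differed between MF and MyoF at least 2-fold, by the test of the difference itself in the model of all 4 groups, for 13 chains. Each value is the log2 fold change of M-MF against N-MF minus that of M-MyoF against N-MyoF, and 7.10% of all genes tested met the same threshold. The difference was 3.14 for Col6a5, which was higher with metastasis in both subgroups, and 2.48 for Col6a6, which passed in MF alone. Among chains of cartilage it was 2.11 for Col9a3, 1.96 for Col9a2, 1.90 for Col10a1, 1.82 for Col2a1, 1.81 for Col9a1, 1.75 for Col11a1 and 1.54 for Col11a2. These 7 averaged under 1 FPKM in N-MF, so on a scale with a pseudocount of 1 their sign follows from the drop in MyoF, and Col9a1, Col9a2, Col10a1, Col11a1 and Col11a2 reached 1 FPKM in N-MyoF alone. With a pseudocount of 0.1 the Col2a1 difference was -0.15 (limma adjusted p = 0.292), and chondrocyte markers moved with these chains, as given in the report. Col28a1 had a difference of 1.17, higher in M-MF and lower in M-MyoF against their normal groups. It reached 1 FPKM in M-MF alone, the group where it was high, so this value is a description. The negative differences were -1.62 for Col15a1, -1.26 for Col23a1 and -1.03 for Col4a4. Col23a1 averaged 0.967 FPKM in N-MyoF, so with a pseudocount of 1 its sign follows from the drop in MF, and its value is a description.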

How the results depend on the processing

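Of 2940 chain values recomputed under the alternatives, 2861 kept their side of the threshold, 27 newly passed and 28 no longer passed, none with a counted turn of direction. Another 24 turned direction and passed in the main fit, the alternative or both. A turn of direction was not counted where a value passed in neither fit, so the 2861 may include such turns. Counts of chains at least 2-fold changed with the pseudocount and with scaling. With a pseudocount of 0.1, M-MF against N-MF gave 4 higher and 10 lower, and M-MF against M-MyoF 8 lower. With 5, chains at least 2-fold lower numbered 2 in M-MF against N-MF, 3 in M-MyoF against N-MyoF, 4 in N-MF against N-MyoF and 1 in M-MF against M-MyoF; 1 was higher in M-MyoF against N-MyoF, and the 2 metastasis effects differed for 6. Quantile normalization gave 8 lower in M-MF against N-MF. Median-ratio scaling and quantile normalization each gave 12 higher in N-MF against N-MyoF and 13 higher in M-MF against M-MyoF, where the deposited values gave 8 and 11. A filter at 5 FPKM left 6 lower in M-MyoF against N-MyoF. Leaving out each library in turn left these counts at 2 higher and 5 lower in M-MF against N-MF, 3 and 8 in M-MyoF against N-MyoF, 8 and 9 in N-MF against N-MyoF, and 11 and 3 in M-MF against M-MyoF; the effects differed for 12 to 13 chains. Without the 10 most abundant genes the collagen share was 2.05% in M-MF, 2.397% in N-MF, 0.429% in M-MyoF and 0.569% in N-MyoF.

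In M-MF against N-MF, Col4a1 was at -0.10 with equal sums, and with median-ratio scaling Col4a1 was at -0.12 and Col6a1 at -0.0204. With quantile normalization Col4a1 was at -0.26, Col6a1 at -0.0525 and Col27a1 at -0.17. In M-MyoF against N-MyoF, equal sums put Col4a1 at -0.00902 and Col1a2 at -0.19, median-ratio scaling put Col1a2 at -0.16, and quantile normalization put Col4a1 at -0.14 and Col1a2 at -0.24. In N-MF against N-MyoF, Col4a2 was at 0.0709 with median-ratio scaling and Col28a1 at 0.30 with quantile normalization. In M-MF against M-MyoF, Col4a1 was at 0.0266 with equal sums; with median-ratio scaling Col4a1 was at 0.24, Col16a1 at 0.0599, Col8a1 at 0.11 and Col4a2 at 0.046; with quantile normalization Col4a1 was at 0.00417 and Col8a1 at 0.0857. The difference of effects turned to -0.15 for Col2a1 and 0.15 for Col7a1 with a pseudocount of 0.1, to 0.0717 for Col14a1 with equal sums and to 0.0506 for Col6a2 with quantile normalization.

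With the replicate number as a block, the 2-fold counts were the same as without it. The block ended the Col9a1 call in M-MF against N-MF (-0.15, limma adjusted p = 0.0535) and added Col1a1 in M-MyoF against N-MyoF (-0.0337, limma adjusted p = 0.00128), and it changed no other call among the chains. Pairing by number was added for the ratios of chains after the data were seen, and gave an exact p of 0.25, the smallest possible, for each. The depth behind the FPKM values is unknown, so no counting error can be given, and the causes of these changes were not tested.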
